A study of Mus musculus with 5 samples.

Results

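The genes of the cytosolic ribosomal proteins were followed in Drop-seq libraries of mouse kidney. They were taken by name: every listed symbol that begins with Rpl or Rps and a digit, together with Rplp0, Rplp1, Rplp2 and Rpsa, without the Rps6k kinases and without symbols that end in -ps and a number. This gave 86 genes of 16934 listed in all, with 52 named for the large subunit (Rpl) and 34 for the small subunit (Rps and Rpsa). Of these, 76 are the standard ribosomal proteins, and 10 are copies or paralogs of them or, in the case of Rps19bp1, a binding partner. The copies and paralogs are Rpl3l, Rpl7l1, Rpl10l, Rpl22l1, Rpl32l, Rpl36al, Rpl37rt, Rps4l and Rps27l.

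The series holds 5 libraries from wild-type mice, whose strain the labels write as C56BL/6N. Cortex, outer medulla and inner medulla gave 1 library each, and whole kidney gave 2. Preparation was the same for all: kidneys were flushed with cold buffer, taken apart by a cold-active protease, and the cells were stored in methanol until the droplet run. The labels give no treatment, no age and no number of animals, and they do not say whether libraries came from different mice, so the spread between libraries may be technical. Below, 5 values in a row belong to cortex, outer medulla, inner medulla, whole kidney 1 and whole kidney 2, in this order, and 4 values leave out inner medulla.

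Each ribosome is built from a small subunit, which reads the mRNA, and a large subunit, which joins amino acids, and most of their proteins are present in a single copy per ribosome. The mRNAs of these proteins are among the most abundant of any cell, and they are regulated together: most begin with a run of pyrimidines at the cap, the terminal oligopyrimidine or TOP motif, through which growth signals switch their translation on and off. In the kidney, the tubule segments differ in transport work and in how much of their mRNA goes to a few segment-specific proteins, against which the ribosomal protein mRNAs are counted.

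The shared sequence feature of the members was looked for at their transcription starts, where the TOP motif sits. The sequences are from RefSeq (mouse build GRCm38.p6), whose promoter table held 65 of the 86 members. Each line gives 30 bases, 5′ to 3′, from 10 bases before the annotated start, and capitals mark the longest run of C or T in the stretch. The genes are Rps2, Rplp0, Rpl13a and Rps9, which were among the most abundant members, and Rps27l, the paralog described further down.
Rps2 (chr17:24720053-24720082, + strand): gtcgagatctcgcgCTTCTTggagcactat
Rplp0 (chr5:115559457-115559486, + strand): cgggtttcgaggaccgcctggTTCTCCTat
Rpl13a (chr7:45128726-45128755, − strand): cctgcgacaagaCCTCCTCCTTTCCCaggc
Rps9 (chr7:3704031-3704060, + strand): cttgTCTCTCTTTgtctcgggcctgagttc
Rps27l (chr9:66946076-66946105, + strand): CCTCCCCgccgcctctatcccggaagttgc

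A run of at least 8 pyrimidines, each C or T, lay within 20 bases before to 50 bases after an annotated start in 49 of 65 members (75.4%), against 28.5% of all 27025 genes of the table. On the opposite strand the order was the other way, with 12.3% of members and 31.7% of all genes. A C followed directly by 4 pyrimidines, placed at the annotated start itself, was found in 21.5% of members and 3.01% of all genes. Annotated starts can be off by several bases, so the stricter pattern depends on the annotation. A second list, of genes known to carry the same motif without being ribosomal proteins (translation factors such as Eef1a1 and Eef2), had the longer run in 7 of its 14 matched genes.

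A barcode counted as a cell from 200 detected genes on. Without 22 marked doublets there were 12099 cells, 894 to 3304 per library, with 517887 to 2882062 unique molecular identifiers (UMIs, each standing for 1 captured mRNA molecule) and a median of 440 to 516.5 UMIs per cell. All levels are UMIs per 1000000 UMIs (CPM) of a library or of the summed cells of 1 class in 1 library. Drop-seq counts 3′ ends, so levels of different genes are not divided by length. Cells were grouped without using any ribosomal protein gene, and each group was named after its markers with "-like". A class entered a comparison from libraries that gave it 30 cells or more and 20000 UMIs or more.

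The members were abundant. Their summed UMIs made up 5.87%, 4.64%, 6.11%, 4.42% and 5.05% of all UMIs, so inner medulla and cortex were highest and whole kidney 1 was lowest. The median member stood at 611 CPM as a mean over the 5 libraries, 77 of 86 members were at 100 CPM or more, and 11 were at 1000 CPM or more. Rps2, which lines the mRNA entry channel of the small subunit, was the highest member at 1532 CPM. It was followed by Rplp1 of the large subunit's stalk at 1345 CPM, Rps14 of the small subunit's platform at 1292 CPM and Rpl13a at 1252 CPM. Next came Rpl13 at 1225 CPM, the stalk base protein Rplp0 at 1211 CPM, Rpl4 at 1086 CPM, Rps9 at 1079 CPM and the very short Rpl41 at 1042 CPM.

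Among the 10 paralogs and partners, Rps27l alone stood above the median member, at 792 CPM. Rpl36al stood at 427 CPM, Rpl22l1 at 209.9 CPM and Rpl37rt at 141 CPM. Rps19bp1 was at 79.8 CPM, Rps4l at 70.8 CPM, Rpl7l1 at 70.4 CPM and Rpl32l at 45.4 CPM. Rpl3l, the muscle form of Rpl3, was at 4.71 CPM (51 UMIs in all), and Rpl10l, the testis form of Rpl10, at 0.446 CPM (5 UMIs). Between libraries, Rps4l and Rps27l stood apart in inner medulla. Rps4l was at 229.8 CPM there and at 23.6 to 41.2 CPM in the other 4 libraries, and Rps27l was at 434 CPM there and at 747 to 951 CPM elsewhere.

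A few standard ribosomal proteins were nearly absent from the counts, although their proteins are regular parts of the ribosome. Rpl34 had 73 UMIs (7.10 CPM), Rps27 had 23 UMIs (3.15 CPM) and Rpl30 had 9 UMIs (1.08 CPM). Reads that match several genes are often left out of such counts, and many ribosomal protein genes have near-identical pseudogenes. The last 300 bases of each member's shortest transcript, consensus coding ones first (GENCODE for GRCm38), were therefore split into windows of 50 bases and looked up in all other genes' transcripts. Of these windows, 100% were shared for Rps27, 80.9% for Rpl30 and 54.2% for Rpl34, against a median of 63.2% over all members. Sharing and level did not go together closely: of 25 members with at least 80% of windows shared, 23 were at 100 CPM or more, and Spearman's rho between share and level was -0.30 across the 76 standard genes, which are not independent replicates. How the authors treated reads with several matches is not given in the sources used here, so levels of members with shared ends are uncertain, and the part of shared ends in the low counts was not tested. Rps27, Rpl30 and Rpl34 did not pass the filters on low values of the main setting and entered no comparison of single genes there. In the setting without the filter on low counts, all 86 members were tested.

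The classes were checked against their markers. Of the marker genes of each class, the thick ascending limb-like cells had 9 detected in at least 10% of cells, intercalated cell-like cells 10, connecting tubule-like cells 5, distal convoluted tubule-like cells 4 and thin limb-like cells 3. Principal cell-like cells came from different clusters: 413 of 417 cells of one, led by Aqp4 and Plet1, were from inner medulla, whereas the other, led by Hsd11b2 and Aqp3, held 408 cells from all libraries. The endothelial-like cluster was also led by Rgs5 and Acta2, genes of pericytes and smooth muscle. Free RNA, estimated from proximal tubule markers, made up 69.3 to 74.1% of UMIs in endothelial-like sums, 14.4 to 39.4% in connecting tubule-like, 19.0 to 27.8% in intercalated cell-like, 5.17 to 31.7% in thick ascending limb-like, 13.4 to 17.0% in distal convoluted tubule-like and 3.16 to 24.99% in principal cell-like sums. Over all pairs of libraries, 6 cell barcodes were shared.

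The first comparison asked whether tubule segments give different shares of their mRNA to the ribosome. Ribosomal protein genes took the most UMIs in thin limb-like cells of the inner medulla, at 6.77% (exact binomial 95% interval 6.55 to 6.98, which covers counting error only), a class found in 1 library in sufficient number. In principal cell-like cells of the collecting duct they took 6.16%, 5.11%, 6.44%, 5.13% and 5.72% of UMIs, a mean of 5.71% ± 0.60 (SD, n = 5). Thick ascending limb-like cells, which reabsorb salt, gave 6.52%, 4.87%, 5.91%, 5.04% and 5.85%, a mean of 5.64% ± 0.68 (SD, n = 5). Proximal tubule-like cells, the bulk of the data with 8264 cells, gave 5.94%, 4.60%, 4.36%, 4.41% and 5.03%, a mean of 4.87% ± 0.66 (SD, n = 5). Both distal classes were thus above proximal tubule in each of the 5 libraries, while the ranges over libraries overlapped.

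The remaining classes had no usable sum in inner medulla. Intercalated cell-like cells, which move acid and base, gave 5.83%, 4.36%, 4.27% and 5.04%, a mean of 4.87% ± 0.72 (SD, n = 4). Distal convoluted tubule-like cells gave 5.31%, 4.24%, 4.397% and 4.83%, a mean of 4.69% ± 0.48 (SD, n = 4). Connecting tubule-like cells gave 4.75%, 3.62%, 3.87% and 4.71%, a mean of 4.24% ± 0.58 (SD, n = 4). Endothelial-like cells gave 6.12% in cortex, 5.02% in outer medulla and 5.07% in whole kidney 2, a mean of 5.40% ± 0.62 (SD, n = 3). Podocyte-like cells, below the minimum in every library, ranged from 3.49% to 4.33%. Among classes that met the minimum, the connecting tubule was the lowest in each library that held it, and in whole kidney 2 its interval overlapped that of the distal convoluted tubule. The intervals of principal cell-like and thick ascending limb-like cells overlapped in cortex, in outer medulla and in both whole kidney libraries, but not in inner medulla.

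**Figure D1:**
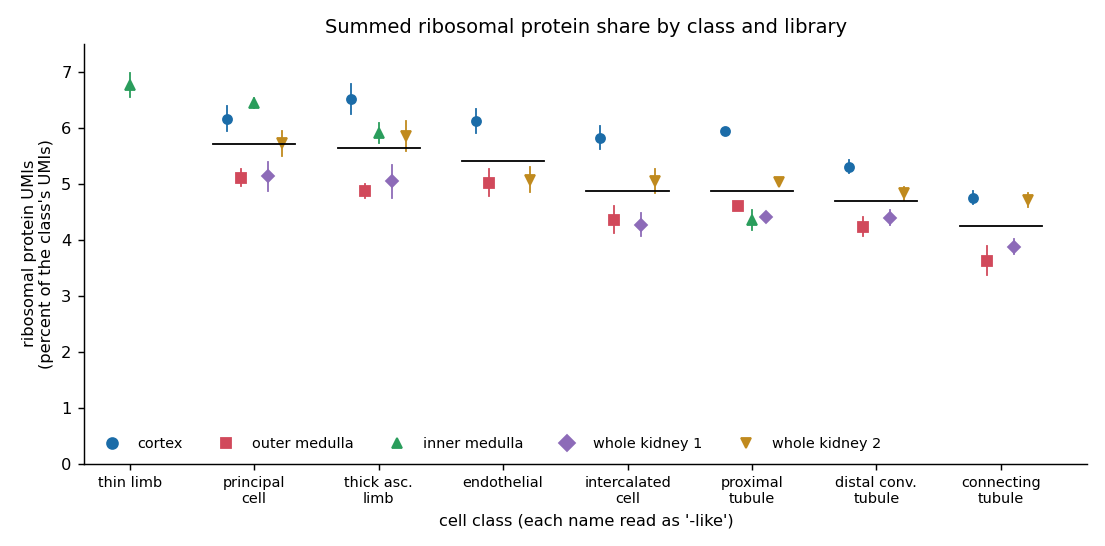
Share of ribosomal protein UMIs (percent of the class's UMIs, vertical axis from 0) by cell class, with 1 symbol per library, exact 95% binomial intervals as bars and the mean over libraries as a line. Cortex sits above outer medulla in every class that both hold, and the connecting tubule has the lowest mean (4.24%).

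Compared within libraries, principal cell-like cells were above proximal tubule by 0.85 ± 0.72 percentage points (SD, n = 5, higher in 5 of 5) and thick ascending limb-like cells by 0.77 ± 0.48 points (higher in 5 of 5). For each, the exact two-sided sign-flip permutation test over libraries gave p = 0.0625, the smallest p that 5 libraries allow, and p = 0.1875 after Benjamini-Hochberg adjustment over the 6 classes compared. The distal convoluted tubule differed by -0.30 ± 0.26 points and the connecting tubule by -0.76 ± 0.40 points (SD, n = 4, lower in 4 of 4 for both; exact permutation p = 0.125, the smallest possible, adjusted 0.1875). Intercalated cells differed by -0.12 ± 0.11 points (lower in 3 of 4, exact permutation p = 0.25) and endothelial-like cells by 0.21 ± 0.19 points (higher in 3 of 3, exact permutation p = 0.25). No class could pass 0.05 in this design. All 6 differences share the same proximal tubule sums, and these p-values measure only the spread between the libraries.

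Inner medulla held the largest difference, 2.08 points for principal cells, and without that library the mean was 0.54 points. Proximal tubule-like cells pool clusters with ribosomal protein shares of 4.63% to 5.86%, and their make-up differed between libraries. Of 88 such cells in inner medulla, 34, 28 and 4 fell in the clusters led by Slc7a13, Cela1 and Car3 (shares 4.92%, 5.86% and 5.31%). In cortex these clusters held 345, 542 and 544 of 2235 such cells. A class's share also depends on what else fills the denominator. The 50 most abundant other genes, such as Kap and Gpx3, held 27.4% of UMIs in proximal tubule-like cells, 20.6% in connecting tubule, 18.8% in endothelial, 15.9% in distal convoluted tubule, 14.9% in thick ascending limb, 14.1% in intercalated, 11.8% in principal and 8.11% in thin limb-like cells. With these genes left out of the denominator, the ribosomal protein share was 6.71% in proximal tubule, 6.47% in principal cells, 6.63% in thick ascending limb, 6.66% in endothelial, 5.68% in intercalated, 5.58% in distal convoluted tubule and 5.34% in connecting tubule. The differences from proximal tubule then became -0.24 points for principal cells, -0.08 for thick ascending limb and -0.53 for endothelial-like cells, so their sign turned. Those of the distal convoluted tubule (-1.32), connecting tubule (-1.57) and intercalated cells (-1.23) grew. When cells were assigned by marker score instead, the connecting tubule differed by 0.0064 points and intercalated cells by 0.21 points, so both signs turned.

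Single members were then compared between each class and proximal tubule with edgeR's quasi-likelihood test on the class sums, with library as a term, TMM scaling and Benjamini-Hochberg adjustment over all 2100 genes tested; 0.05 was the threshold. Of the 86 members, 78 passed the filter on low counts. In principal cells, 4 members were higher and 7 lower, when 28.0% of all genes tested were higher and 30.3% lower (58.3% in either direction). In thick ascending limb, 3 were higher and 7 lower (20.7% and 22.9% of all genes, 43.6% in either direction). In the distal convoluted tubule, 0 were higher and 33 lower (25.0% and 27.4%, 52.4% in either direction). In the connecting tubule, 0 were higher and 14 lower (20.9% and 22.1%, 43.0%). In intercalated cells, 1 was higher and 17 lower (21.5% and 24.1%, 45.6%), and in endothelial-like cells 0 and 1 (12.0% and 4.81%, 16.9%). At an unadjusted p under 0.05, 37 of the 78 members passed in the distal convoluted tubule, 27 in the connecting tubule and 3 in endothelial-like cells. Of all 2100 genes tested, 1196, 1022 and 672 passed in the same order. Higher calls were rarer among the 78 members than among all genes in every class. Lower calls were a larger share of the members than of all genes in the distal convoluted tubule alone. There they were so in 6 of 13 other settings, among them free RNA subtraction, which left proximal tubule uncorrected. With plain class totals they were a smaller share there too, and without the filter on low counts a larger one in all 6 classes. That setting tests 15787 genes, most of which are too low for the filter and can hardly be called. The median of all genes then lay at -0.15 in principal cells to -0.55 in endothelial-like cells. Its shares can therefore not be set beside those of the filtered fit.

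With plain totals in place of TMM, 17 members were higher and 2 lower in principal cells (36.0% and 23.0% of all genes, 59.1% in either direction), and 12 and 2 in thick ascending limb (28.4% and 18.3%, 46.7%). The distal convoluted tubule then had 1 higher and 7 lower (34.4% and 20.8%, 55.2%), the connecting tubule 0 and 6 (23.6% and 19.7%, 43.2%) and intercalated cells 4 and 3 (29.4% and 18.4%, 47.8%). Endothelial-like cells had 0 and 0 by edgeR (12.2% and 3.62%, 15.8%). At an unadjusted p under 0.05, 6 members and 650 of all 2100 genes passed there. DESeq2 gave 0 members higher and 1 lower, with 285 and 127 of all 2100 genes. The counts of calls thus followed the scaling.

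The median member stood at -0.34 (log2) in the distal convoluted tubule, -0.30 in the connecting tubule and -0.34 in intercalated cells, against medians of -0.01, -0.02 and -0.01 over all genes tested. It stood at -0.05 in principal cells, -0.11 in thick ascending limb and 0.05 in endothelial-like cells, against 0.00, -0.02 and -0.05. With plain class totals, the median of all genes moved to 0.27 in principal cells, 0.26 in thick ascending limb, 0.26 in distal convoluted tubule, 0.09 in connecting tubule and 0.28 in intercalated cells. The median member was then at 0.22, 0.17, -0.07, -0.18 and -0.05 in that order, so its sign turned in principal cells and thick ascending limb. The distance of the median member from the median gene was -0.33 in the distal convoluted tubule, -0.28 in the connecting tubule and -0.33 in intercalated cells with TMM. With plain totals it was -0.33, -0.27 and -0.33. A change of scaling moves all genes of a class by about the same amount, so this distance could hardly differ between the scalings. With classes from marker scores the distance was smaller, at -0.10, -0.02 and -0.19.

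**Figure D2:**
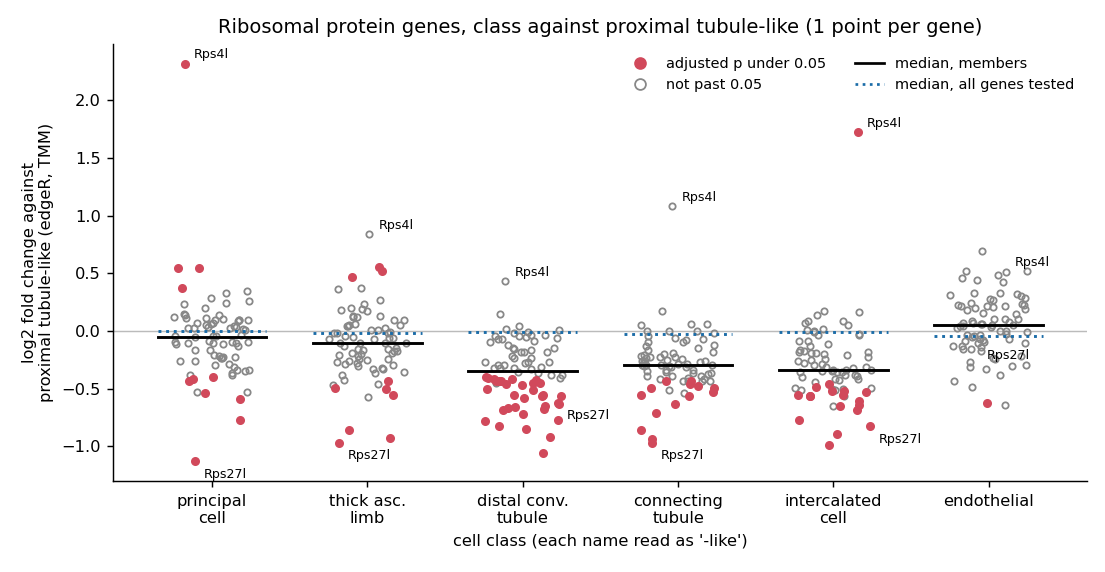
Log2 fold change of each tested ribosomal protein gene against proximal tubule-like cells (edgeR, TMM scaling) by class, with filled points for an adjusted p under 0.05. The members' median (black line) lies below the median of all genes (dotted line) by 0.33 in distal convoluted tubule, 0.28 in connecting tubule and 0.33 in intercalated cells.

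Rps27l, Rps19 and Rps2 fell in all 5 tubule classes compared with proximal tubule, and Rpl10 fell in these and in endothelial-like cells, by the TMM fit. By library, Rpl10 lay above proximal tubule in 2 of 5 for principal cells, 1 of 5 for thick ascending limb and 1 of 4 for connecting tubule. Of its 3′ windows, 100% were shared with other genes, so its level is uncertain. Rps27l, a paralog of the zinc finger protein Rps27 and known as a target of p53, had the largest fall. Rps27l stood at 1002, 966, 865, 769 and 996 CPM in proximal tubule-like cells. In principal cells it stood at 575, 389, 395, 626 and 607 CPM, and in thick ascending limb at 700.3, 576, 309, 557 and 765 CPM. Every sum of these classes lay below the proximal tubule sum of its own library. In the connecting tubule it was at 514, 581, 525 and 559 CPM, and again below proximal tubule in each library. Endothelial-like cells (825 to 1022 CPM) were near proximal tubule, whereas thin limb-like cells were at 377 CPM.

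By edgeR's quasi-likelihood test with Benjamini-Hochberg adjustment, Rps27l fell by 1.13 on the log2 scale in principal cells (SE 0.17, adjusted p = 1.17e-07), by 0.97 in thick ascending limb (SE 0.17, adjusted p = 7.4e-06) and by 0.97 in the connecting tubule (SE 0.18, adjusted p = 1.16e-05). It fell by 0.83 in intercalated cells (SE 0.19, adjusted p = 0.000234) and by 0.62 in the distal convoluted tubule (SE 0.16, adjusted p = 0.00121). In endothelial-like cells the value was -0.11 (SE 0.20, adjusted p = 0.763). Its falls in principal cells, thick ascending limb, connecting tubule and intercalated cells were past the threshold in 12 of 12 other settings each, and that in the distal convoluted tubule in 10 of 13.

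The standard form Rps27 cannot be set beside it, because it had 23 UMIs. The 30-base stretch with the most differences is shown from the GENCODE transcripts, from position 205 of Rps27 and position 258 of Rps27l, with differing letters in capitals. The aligned transcripts are 77.4% identical.
Rps27: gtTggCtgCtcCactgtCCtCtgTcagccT
Rps27l: gtGggTtgTtcAactgtGTtGtgCcagccC

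Rps4l was the member that rose the most. It is a copy of Rps4x, the X-linked form of a small subunit protein, and the annotation lists it as a transcribed pseudogene. In principal cells it stood at 155, 207, 312, 34.8 and 140.03 CPM. In proximal tubule it stood at 22.6, 20.7, 56.4, 28.0 and 20.05 CPM. Counts behind these values were small outside inner medulla: 7, 17, 94, 1 and 6 UMIs in principal cells. Principal cells were above proximal tubule in 5 of 5 libraries, although the value of whole kidney 1 rests on 1 UMI. Intercalated cells stood at 39.2, 215, 102 and 71.8 CPM, from 2 to 6 UMIs each, above proximal tubule in 4 of 4 libraries. Thin limb-like cells of inner medulla were at 151 CPM.

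Rps4l reached the filter level of 181 CPM in 3 of 30 sums, principal cells of inner and outer medulla and intercalated cells of outer medulla, so it passed the filter because it is high there. Its test is therefore given without the filter. By edgeR's quasi-likelihood test with Benjamini-Hochberg adjustment over all genes, Rps4l rose by 1.92 (log2) in principal cells (SE 0.37, adjusted p = 2.85e-06). In intercalated cells it had a value of 1.25 and did not pass (SE 0.52, adjusted p = 0.102), nor did it in the connecting tubule (0.75, adjusted p = 0.422) or thick ascending limb (0.49, adjusted p = 0.677). With the filter the values of Rps4l were 2.31 in principal cells and 1.72 in intercalated cells, both past the threshold, and it is the 1 member counted as higher in intercalated cells. Without inner medulla or without outer medulla it did not pass the filter and was not tested.

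The most different stretch of Rps4x and Rps4l is shown from position 175 of Rps4x and position 81 of Rps4l in the same way. The transcripts are 80.05% identical over their aligned length, with 11 differing letters in these 30 bases. Rps4x itself was at 404, 294, 376, 283 and 388 CPM in proximal tubule and at 664, 328, 439, 209 and 490.1 CPM in principal cells, a log2 value of 0.06 (SE 0.21, edgeR adjusted p = 0.831).
Rps4x: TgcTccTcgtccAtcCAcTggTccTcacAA
Rps4l: CgcGccCcgtccGtcTGcCggCccGcacCG

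**Figure D3:**
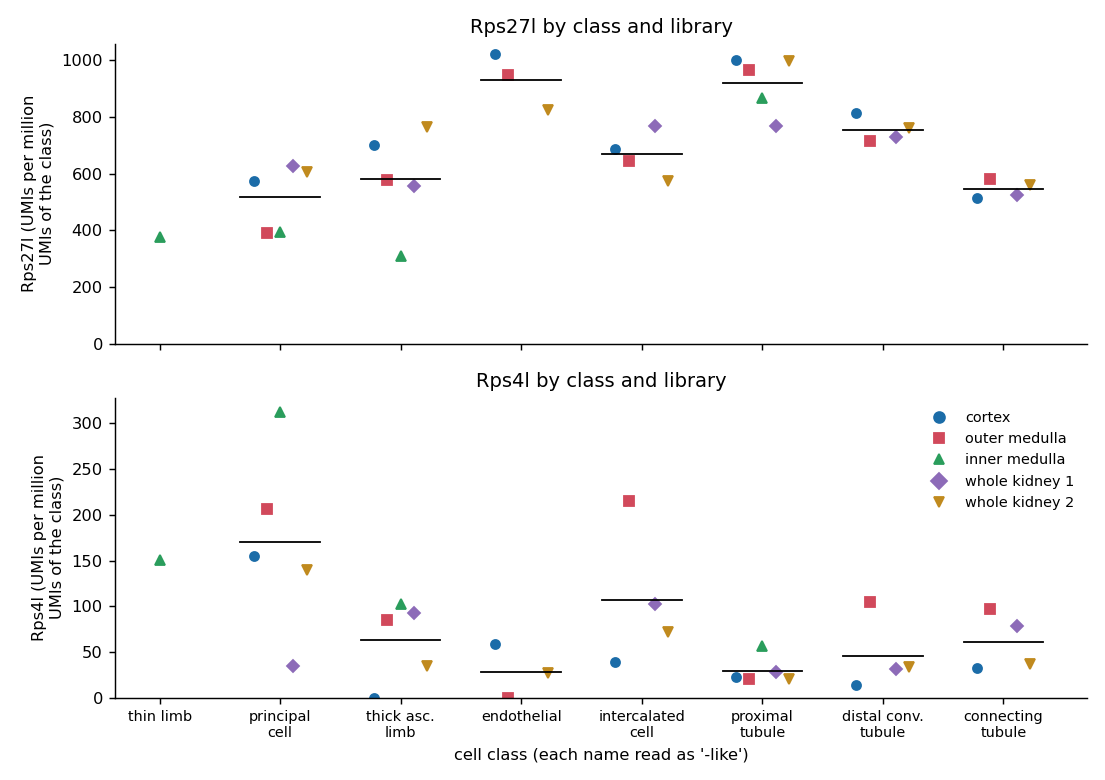
Level of Rps27l (upper panel) and Rps4l (lower panel) in CPM by class, with 1 symbol per library and the mean as a line; both axes start at 0. Proximal tubule-like cells lie at 769 to 1002 CPM for Rps27l and at 20.05 to 56.4 CPM for Rps4l.

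Principal cells had further members on both sides. Rps2 stood at 1869, 1561, 1505, 1589.8 and 1855 CPM in proximal tubule and at 1439, 1107, 1007, 1252 and 1167 CPM in principal cells, lower in 5 of 5 libraries. It fell by 0.77 (log2, SE 0.15, edgeR adjusted p = 2.3e-05), past the threshold in 12 of 12 other settings. Rpl21, of the large subunit, went the other way, from 791, 563, 734, 597 and 688 CPM to 1638, 779, 1339, 1182 and 1167 CPM. It rose by 0.55 (SE 0.15, edgeR adjusted p = 0.00216), and Rpl7, also of the large subunit, rose by as much (0.55, SE 0.15, edgeR adjusted p = 0.00214). Of the 3′ windows of Rpl21, 100% were shared with other genes, so its level is uncertain. Rpl37a rose by 0.37 (SE 0.15, edgeR adjusted p = 0.033), and without the filter on low counts its value was -0.01. Rps19, mutated in Diamond-Blackfan anaemia, fell by 0.59 (edgeR adjusted p = 0.00104). Rpl24, of a bridge between the subunits, fell by 0.54 (edgeR adjusted p = 0.0165), and Rpl27 fell by 0.43 (edgeR adjusted p = 0.0226); each was past the threshold in 4 of 12 other settings. Most of these principal cells in inner medulla belong to another cluster than those of the other libraries.

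Rps19 was lower in all 4 other tubule classes as well. It stood at 1240.3, 967, 1185, 935 and 991 CPM in proximal tubule and at 944, 576, 647, 510.3 and 696 CPM in thick ascending limb. In intercalated cells it was at 783, 429.7, 511 and 886 CPM. Each value lay below its own library's proximal tubule. Rps19 fell by 0.93 in thick ascending limb (log2, SE 0.17, edgeR adjusted p = 7.1e-06), by 0.99 in intercalated cells (SE 0.18, edgeR adjusted p = 1.53e-05), by 0.94 in the connecting tubule (SE 0.17, edgeR adjusted p = 1.31e-05) and by 0.85 in the distal convoluted tubule (SE 0.16, edgeR adjusted p = 1.77e-05). In thin limb-like cells of inner medulla, Rps19 was at 1264 CPM, above proximal tubule there.

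In thick ascending limb, Rpl3, which reaches towards the peptidyl transferase centre, rose from 699.8, 620, 470.3, 475 and 636 CPM in proximal tubule to 1248, 1002, 999.5, 974 and 1078 CPM. The rise was 0.56 (log2, SE 0.17, edgeR adjusted p = 0.00513), higher in 5 of 5 libraries. Rpl21 rose by 0.52 (edgeR adjusted p = 0.00663) and Rps3, at the mRNA entry site, by 0.47 (edgeR adjusted p = 0.0153), each also in 5 of 5 libraries. The level of Rpl21 is uncertain because of its shared 3′ windows. Rpl10, which completes the catalytic large subunit late in assembly, fell by 0.56 (edgeR adjusted p = 0.00674), Rpsa by 0.50 (edgeR adjusted p = 0.0219) and Rpl37rt by 0.86 (edgeR adjusted p = 0.0395). The fall of Rpsa was past the threshold in 4 of 12 other settings. Rpl37rt reached the filter level in 4 of 30 sums, and its fall here was past the threshold in 1 of 11 other settings. Its transcript is 99.7% identical to that of Rpl37, so reads of these genes can hardly be told apart.

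The distal convoluted tubule, the segment of the thiazide-sensitive transporter, had the most members below proximal tubule in the TMM fit. That order turned without the filter on low counts, where 46 members were lower in intercalated cells and 21 in the distal convoluted tubule (8.11% and 9.02% of all genes), and with classes from marker scores, where 12 and 4 were lower (19.8% and 17.2% of all genes). Rpl22l1, the paralog of the RNA-binding protein Rpl22, stood at 274.5, 189, 180.3 and 227 CPM in proximal tubule. In the distal convoluted tubule it was at 167, 122, 136 and 83.8 CPM, so the groups did not overlap. It fell by 1.06 (log2, SE 0.24, edgeR adjusted p = 0.000194). Rpl37rt fell by 0.92 (edgeR adjusted p = 0.0099), Rpl10 by 0.83 (edgeR adjusted p = 5.14e-05), Rpl28 by 0.78 (edgeR adjusted p = 0.000357), Rpsa by 0.77 (edgeR adjusted p = 0.000251) and Rpl36al, the paralog of Rpl36a, by 0.67 (edgeR adjusted p = 0.002). All of these were lower in 4 of 4 libraries. The number of members called lower in this class was 4 without cortex, 13 without outer medulla, 15 without whole kidney 1, 19 without whole kidney 2 and 43 without inner medulla, a library that gives no sum of the class itself. Of all genes tested, 18.0%, 22.7%, 21.7%, 21.9% and 30.7% were lower in these fits, against 5.06%, 16.9%, 19.0%, 24.4% and 56.6% of the members. Without cortex the median of all genes was 0.23, and the median member lay 0.28 below it. Over the 5 fits this distance lay between -0.36 and -0.28.

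In the connecting tubule, Rps2 fell by 0.85 (log2, SE 0.17, edgeR adjusted p = 2.74e-05). It was at 996, 1113, 867 and 1302 CPM, below proximal tubule in 4 of 4 libraries. Rpl32 fell by 0.71 (edgeR adjusted p = 0.00102), Rpl35a, another gene of Diamond-Blackfan anaemia, by 0.64 (edgeR adjusted p = 0.00786) and Rpl36al by 0.55 (edgeR adjusted p = 0.0198). Of these, Rpl35a was past the threshold in 6 of 12 other settings and Rpl36al in 5 of 12. In intercalated cells, Rps25, which some viral mRNAs need to start translation, fell by 0.89 (SE 0.21, edgeR adjusted p = 0.000373). It stood at 509, 429.7, 358 and 431 CPM, against 838, 585, 589 and 647 CPM in proximal tubule, so the groups did not overlap. Rpl22 fell by 0.77 (edgeR adjusted p = 0.00372, lower in 3 of 4 libraries) and Rpl28 by 0.69 (edgeR adjusted p = 0.011). They were past the threshold in 8 of 12 and 6 of 12 other settings. In endothelial-like cells, whose UMIs were mostly free RNA by the estimate above, Rpl10 was the single call: it fell by 0.63 (SE 0.22, edgeR adjusted p = 0.0433), lower in 3 of 3 libraries, and passed the threshold in 6 of 11 other settings.

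The stalk proteins Rplp0, Rplp1 and Rplp2 recruit the elongation factors to the large subunit, with Rplp0 holding pairs of the other two. Rplp1 and Rplp2 passed the threshold in no class: their log2 values against proximal tubule lay between -0.05 and 0.17 for Rplp1 and between -0.10 and 0.12 for Rplp2. Rplp0 fell by 0.42 in principal cells (edgeR adjusted p = 0.042), by 0.43 in the distal convoluted tubule (edgeR adjusted p = 0.045) and by 0.52 in intercalated cells (edgeR adjusted p = 0.0291). These falls of Rplp0 were past the threshold in 3 of 12, 3 of 13 and 4 of 12 other settings. In principal cells the levels of Rplp0 were uneven, at 1372, 729.9, 1432, 696 and 887 CPM, against 1453, 1202, 715, 1008 and 1281 CPM in proximal tubule. It was higher in inner medulla and lower in the other 4 libraries.

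Other genes of the translation machinery were counted from lists with the same test. Of 3 other genes that make parts of the cytosolic ribosome, Fau and Rack1 fell in the distal convoluted tubule by 0.52 (edgeR adjusted p = 0.00778) and 0.47 (edgeR adjusted p = 0.0281), and none passed in the other classes. Of 17 tested genes with the TOP motif that are not ribosomal proteins, 11 were lower in the distal convoluted tubule (64.7%, against 27.4% of all genes tested). Lower calls numbered 6 in intercalated cells (35.3% against 24.1%), 5 in principal cells (29.4% against 30.3%), 4 in the connecting tubule (23.5% against 22.1%), 3 in thick ascending limb (17.6% against 22.9%) and 0 in endothelial-like cells. In all classes but the distal convoluted tubule and intercalated cells, these shares were near or below those of all genes. A single gene was higher, Eif3f in principal cells. The translation factor Eef1a1 fell by 0.94 in the distal convoluted tubule (edgeR adjusted p = 3.41e-05), and Tpt1 fell by 1.13 there (edgeR adjusted p = 1.17e-07). Pabpc1, the poly(A)-binding protein, fell by 0.60 (edgeR adjusted p = 0.00531) and the elongation factor Eef2 by 0.45 (edgeR adjusted p = 0.0326). The falls of Eef1a1 and Tpt1 were not particular to this class. Both were also past the threshold in each of the other tubule classes, at -0.61 to -0.91 for Eef1a1 and -1.05 to -1.22 for Tpt1. Of 25 genes of ribosome biogenesis, only 4 could be tested, of which Nhp2 fell by 1.33 in the distal convoluted tubule (edgeR adjusted p = 0.000191). Nhp2 was past the threshold in the other tubule classes too, at -0.95 in principal cells to -1.91 in thick ascending limb. Of 15 genes that control ribosomal protein synthesis, 1 could be tested (Rheb, 0.23 in the distal convoluted tubule, edgeR adjusted p = 0.367).

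Mitochondrial ribosomal proteins serve a separate ribosome. Of 44 tested of 78, 6 were higher and 5 lower in the distal convoluted tubule (13.6% and 11.4%, against 25.0% and 27.4% of all genes tested), with a median of 0.10 (log2). In principal cells 1 was higher and 16 lower (2.27% and 36.4%, against 28.0% and 30.3%), with a median of -0.34, where the cytosolic members had a median of -0.05. They numbered 4 higher and 1 lower in thick ascending limb (9.09% and 2.27%, against 20.7% and 22.9%), 2 and 7 in the connecting tubule (4.55% and 15.9%, against 20.9% and 22.1%), 2 and 4 in intercalated cells (4.55% and 9.09%, against 21.5% and 24.1%), and 0 and 0 in endothelial-like cells. Only the lower calls in principal cells were a larger share than among all genes. The difference between the lists was not tested.

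Between libraries, the share moved in step in nearly all cell classes. Outer medulla lay below cortex in 7 of 7 classes, with log2 ratios from -0.42 to -0.27, and whole kidney 1 lay below whole kidney 2 in 6 of 6 classes, from -0.28 to -0.14. Whole kidney 2 lay below cortex in 7 of 7, from -0.27 to -0.01. Barcodes with 50 to under 100 genes, too few to count as cells, had log2 ratios of -0.24 for outer medulla over cortex and -0.16 for whole kidney 1 over whole kidney 2. Inner medulla was below cortex in 2 of 3 classes, and its shallow barcodes had a log2 ratio of 0.02 to those of cortex. With 1 library per region, region and library cannot be told apart.

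Within proximal tubule-like cells this shift was spread over nearly every member. For outer medulla over cortex, 76 of 77 members at 100 CPM or more had a log2 ratio of CPM plus 10 below 0, and their median was -0.36 against 0.01 over all 1749 genes. A log2 ratio of 1 or more in size was reached by 3 members, all lower, and by 0.457% of all genes (8 in number). These were Rps28 of the small subunit, Rpl41 and Rpl37rt. Rps28 stood at 329.8, 138, 226, 226 and 216 CPM, and its log2 ratio of CPM plus 10 was -1.20. On plain CPM, Rps28 was 2.40-fold lower in outer medulla (exact 95% interval 2.02 to 2.85). Rpl41 stood at 1277, 610.1, 978, 1126 and 1066 CPM, with a log2 ratio of -1.05. Rpl37rt stood at 176, 82.7, 226, 98.1 and 86.7 CPM, with a log2 ratio of -1.004. Outer medulla was thus the lowest library for all 3. Nearest to no difference were Rpl4 (-0.03) and Rps3 (-0.04), and Rpl8 alone was above 0 (0.11).

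Between the whole kidney libraries, 69 of 76 members were higher in whole kidney 2, with a median log2 ratio of 0.18 against -0.01 over all genes. None reached 1 in size, against 0.335% of all genes. The largest were Rps3 (0.50), Rps4x (0.44) and Rps9 (0.44), and the lowest were Rpl35 (-0.25), Rpl36al (-0.18) and Rpl27 (-0.14). So libraries of the same kind also differed by a shift over most members, at a smaller size. Proximal tubule-like cells number 88 in inner medulla and are spread over other clusters there than in cortex. For inner medulla over cortex in these cells, the median was -0.40. Past 1 in size, 8 members fell, when 18.1% of all genes were past it in either direction. Rps21 stood at 282 CPM in inner medulla, 744 in cortex and 623 in outer medulla (log2 ratio to cortex -1.37). Rpl35a (-1.15) and Rplp2 (-1.09) followed, and Rpl31 (0.45), Rpl37rt (0.34) and Rpl7 (0.17) were at the other end. For inner over outer medulla the median was 0.01, with 1 member past 1 in each direction (17.3% of all genes), Rpl37rt at 1.35 and Rps21 at -1.12.

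**Figure D4:**
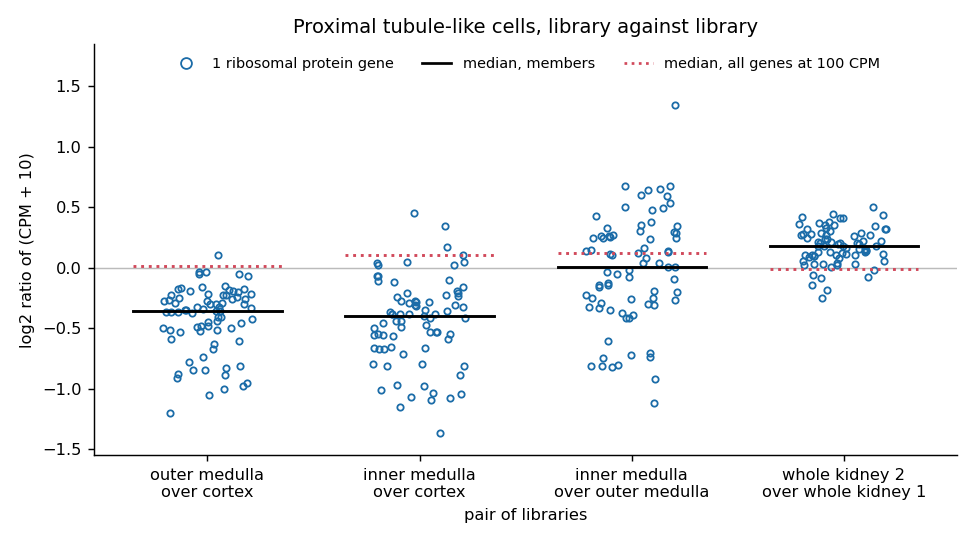
Log2 ratio of CPM plus 10 in proximal tubule-like cells for each ribosomal protein gene at 100 CPM or more, for 3 pairs of regions and the pair of whole kidney libraries. The black median lies at -0.36, -0.40, 0.01 and 0.18 from left to right, and the dotted median of all genes at 0.01, 0.11, 0.12 and -0.01.

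The shortest mRNAs had the lowest ratios of outer medulla over cortex. For that pair, in proximal tubule-like cells, the 8 members with transcripts under 450 bases had a median log2 ratio of -0.82, the 38 members of intermediate length one of -0.34, and the 31 members of at least 800 bases one of -0.36. Spearman's rho between length and ratio was 0.23 across 77 genes, which are not independent replicates. For inner medulla over cortex the medians were close, at -0.46, -0.41 and -0.38 for short, intermediate and long members (rho 0.11). For inner over outer medulla they were 0.48, -0.08 and 0.08 (rho -0.07), so the short members were the highest there. The same split gave 0.09 for 7 short and 0.21 for 31 long members for whole kidney 2 over 1. These values describe the libraries, and the part of transcript length in the shift was not tested.

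In principal cells the median member stood at -0.22 for outer medulla over cortex (0 higher and 6 lower past 1 in size, 28.5% of all genes in either direction), 0.07 for inner medulla over cortex (2 and 0, 41.3%), 0.35 for inner over outer medulla (6 and 1, 29.5%) and 0.05 for whole kidney 2 over whole kidney 1 (4 and 0, 38.6%). Rpl35 was at 487, 146, 409, 452 and 280.1 CPM. Rpl10a was at 199.2, 60.8, 216, 139 and 280.1 CPM and Rpl28 at 443, 170.3, 488, 313 and 327 CPM. Outer medulla was the lowest library for each of the 3, with log2 ratios of inner over outer medulla of 1.42, 1.67 and 1.47. These rest on 12, 5 and 14 UMIs in outer medulla.

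In thick ascending limb the median member stood at -0.45 for outer medulla over cortex (0 higher and 6 lower, 28.4% of all genes), -0.08 for inner medulla over cortex (3 and 6, 39.5%), 0.30 for inner over outer medulla (12 and 0, 24.9%) and 0.23 for whole kidney 2 over whole kidney 1 (8 and 5, 47.8%). With TMM factors the median was -0.23 for inner medulla over cortex and 0.15 for inner over outer medulla (5 and 1), where the medians of all genes were -0.20 and -0.16. With free RNA subtracted, 1 member was higher and 16 lower for outer medulla over cortex (43.8% of all genes), and with marker scores the median for the whole kidney pair was 0.11 (0 and 2, 14.8%). Rpl38, known for its part in the translation of Hox mRNAs, was at 518, 198, 676, 325 and 417 CPM, a log2 ratio of 1.72 for inner over outer medulla. Rps28 (1.55) and Rpl35 (1.46) followed. Counts of members past 1 in size were below the share of all genes in each pair of libraries for this class and for principal cells. This does not show that members are steadier, because the sums are small and most other genes are rarer. The thick ascending limb sum of whole kidney 1 held 21557 UMIs, so many genes rest on few UMIs. Rpl6, near the median member at 608 CPM over the libraries, ranked 253 among all genes. Members were not compared with genes of the same level.

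Binned by detected genes, the share was lower in the deepest than in the shallowest barcodes of 4 libraries. From barcodes with 50 to under 100 detected genes to those with 1000 or more, it went from 6.24% to 5.86% in cortex, from 5.29% to 4.58% in outer medulla, from 5.31% to 4.27% in whole kidney 1 and from 5.93% to 5.01% in whole kidney 2. In inner medulla it was 6.32% in both bins, the deepest of which held 18 barcodes, and 6.03% in barcodes with 500 to under 1000 genes. Within proximal tubule-like cells, from 200 to under 300 genes up to 1000 or more, it went from 6.10% to 5.89% in cortex, from 4.79% to 4.55% in outer medulla, from 4.65% to 4.29% in whole kidney 1 and from 5.21% to 5.02% in whole kidney 2. The mean difference was -0.25 points (SD 0.08, n = 4 libraries). Binned by UMIs instead, these cells differed by -0.18 points in cortex, by -0.08 points in outer medulla, by -0.30 points in whole kidney 1 and by 0.14 points in whole kidney 2, so the direction in whole kidney 2 turned. Over all barcodes and within proximal tubule-like cells, cortex lay above outer medulla in every bin of detected genes, by more than either of these 2 libraries changed with depth.

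**Figure D5:**
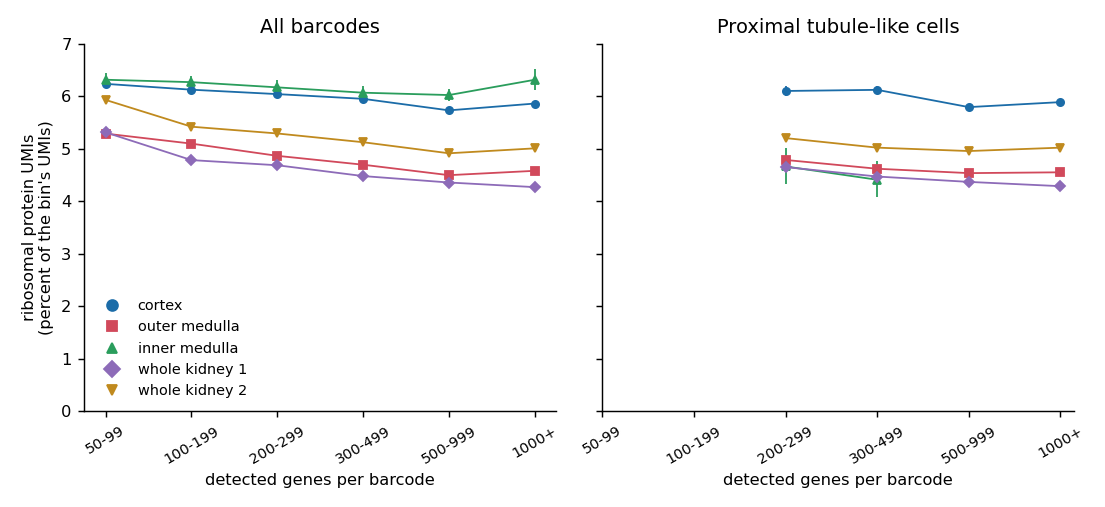
Share of ribosomal protein UMIs (percent, vertical axis from 0) by number of detected genes per barcode, over all barcodes (left) and within proximal tubule-like cells (right), with 1 line per library and exact 95% binomial intervals. In proximal tubule-like cells cortex stays between 5.80% and 6.13% and outer medulla between 4.54% and 4.79%.

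Single cells of a class varied more than counting allows. With each cell thinned to 300 UMIs (9947 cells, with 1535 shallower cells left out), the SD of the share over cells was 1.14 to 2.16 times the binomial SD in 34 groups of class and library, with a median of 1.43.

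The genes whose levels ran most like the summed share over the 31 class sums were sought among 1825 other genes at 100 CPM or more on average, by Spearman's rho and as a description only, since sums of a library share its depth and free RNA. Fau, whose product includes a small subunit protein, was first (0.74). Others among the highest were Rpl14-ps1 (0.65), Samd9l (0.63), Nol7 (0.62), Capns1 (0.62), Btf3 (0.60), Naca (0.58), Rack1 (0.56) and Crip2 (0.55). The members themselves, at 100 CPM or more, had a median rho of 0.58 with the sum they are part of. Rps27l was the lowest of them, at -0.13.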

How the data were processed

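Per the labels' protocols, cells were fixed in methanol and run on Drop-seq. The tables the authors deposited hold raw UMI counts (whole numbers) for gene symbols in rows and barcodes in columns. The submitters' processing notes name Seurat 2.3.1 and the build mm9, with no role for either; aligner and handling of multi-mapping reads: not given in the sources used here. Members and gene lists were chosen with earlier results of these data known.

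Cells had at least 200 detected genes. Scrublet in scanpy 1.11.5 marked 22 of 12121 cells, under 0.5%, so it did not work and most doublets are still in the data. Clusters (leidenalg 0.10.2) were made without the members and named from fixed markers; 525 cells led by MHC class II genes were left unnamed and Rpl37rt and Rpl32l joined the paralogs after the data were seen. Class sums were tested with edgeR 4.0.16 (R 4.3.3), with DESeq2 1.42.0 as an alternative, and checked on simulated data. Library is the block in the main fit, since class sums of a library share tissue and preparation. Named were the 10 highest and 5 lowest members, up to 5 called members per class and direction, up to 3 per pair of libraries and direction, and all measured paralogs and stalk proteins. Free RNA was estimated from the profile of barcodes under 100 genes and subtracted, in that setting, from every class but proximal tubule. Other settings were another depth filter, scaling, low-count filter, denominator, class definition, doublet filter, free RNA subtraction and each library left out. Values of some genes are not reported here.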

Additional observations from a re-analysis of the deposited data

Results flagged for a closer look

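Symbols that end in -ps and a number were left out of the members by name. Their 5 symbols, mostly Rpl14-ps1, held 0.0445% of UMIs in cortex, 0.0253% and 0.0628% in outer and inner medulla, and 0.0233% and 0.0227% in whole kidney 1 and 2, above the limit that a count of 0 allows (3 counts, 0.000104% to 0.000579% of a library). In the same order, Rpl14-ps1 alone stood at 365, 193, 508, 174 and 180.1 CPM.

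The 525 cells led by MHC class II genes entered no comparison. Members made up 6.44% of their UMIs in cortex, 4.76% in outer medulla, 5.06% and 6.16% in whole kidney 1 and 2. Their share of proximal tubule markers was as high as in barcodes with under 100 genes, so the free RNA estimate stood at 100% in each.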

How the results depend on the processing

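With the 50 most abundant other genes out of the denominator, the share was 7.86% in cortex, 6.23% and 6.89% in outer and inner medulla, and 5.93% and 6.85% in whole kidney 1 and 2. By class it was 6.71% in proximal tubule, 6.47% in principal cells, 6.63% in thick ascending limb, 5.58% in distal convoluted tubule, 5.34% in connecting tubule, 5.68% in intercalated, 6.66% in endothelial and 7.36% in thin limb-like cells. The differences from proximal tubule turned to -0.24 points in principal cells, -0.0826 in thick ascending limb and -0.53 in endothelial-like cells, by construction of the denominator. Cells of at least 500 genes gave 5.80% in cortex, 4.53% in outer medulla and 6.37% in principal cells. Without paralogs and partners the share was 5.67% in cortex, 4.47% in outer medulla and 5.92% in inner medulla. Classes from marker scores gave 4.90% in connecting tubule and 5.64% in thin limb, and turned the differences of the connecting tubule (0.0064 points) and intercalated cells (0.21); the cause was not tested. Free RNA subtraction gave 4.48% in endothelial-like cells. Depth bins by UMIs gave -0.11 points in place of -0.25.

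Of 78 members tested, the counts called were 11 in principal cells, 10 in thick ascending limb and 33 in distal convoluted tubule. They were 14 in connecting tubule, 18 in intercalated and 1 in endothelial-like cells. Of all 2100 genes tested, 58.3%, 43.6%, 52.4%, 43.0%, 45.6% and 16.9% were called in that order. With plain totals, member calls numbered 19 in principal cells, 8 in distal convoluted tubule, 6 in connecting tubule, 7 in intercalated and 0 in endothelial-like cells. Of all genes, 59.1%, 55.2%, 43.2%, 47.8% and 15.8% were called in these classes. Without the filter on low counts, 23, 26, 21, 26, 46 and 22 of 86 members were called, from principal to endothelial-like cells in the first order above. Of 15787 genes, 2959, 2112, 2544, 2052, 2038 and 1747 were called. With clusters made with the members, member calls numbered 8 in distal convoluted tubule, 5 in connecting tubule, 5 in intercalated and 0 in endothelial-like cells. Of 2221 genes, 1225, 986, 1027 and 364 were called in these classes. With marker scores, member calls numbered 7 in principal cells, 2 in thick ascending limb, 4 in distal convoluted tubule and 1 in connecting tubule. They were 13 in intercalated and 3 in endothelial-like cells. Of 2885 genes, 1410, 870, 862, 744, 1085 and 642 were called in that order. With free RNA subtracted, member calls numbered 28 in connecting tubule and 33 in intercalated cells, when 977 and 1083 of 2506 genes were called. Free RNA was taken out of every class but proximal tubule. Members made up 5.29% to 6.32% of free RNA, above their share in most class sums. Subtraction thus lowers their share in such sums, while proximal tubule stays as counted. DESeq2 stayed within 1.5 times in each class. The cause of these changes was not tested.

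Leaving out 1 library at a time left 1831 to 2428 genes tested. Of these, 1035 to 1242 were called in principal cells, 795 to 949 in thick ascending limb and 987 to 1087 in distal convoluted tubule. In connecting tubule they numbered 792 to 907, in intercalated cells 853 to 954 and in endothelial-like cells 231 to 517. Members called numbered 6 to 16 in principal cells, 5 to 12 in thick ascending limb and 4 to 43 in distal convoluted tubule (4 without cortex, 43 without inner medulla). They numbered 5 to 28 in connecting tubule, 4 to 27 in intercalated cells and 0 to 1 in endothelial-like cells. Counts moved by over 1.5 times in principal cells without whole kidney 1 (6) or 2 (7), in thick ascending limb without outer medulla (6) or whole kidney 1 (5), in connecting tubule without cortex (5), outer medulla (5), whole kidney 1 (6) or inner medulla (28), in intercalated cells without cortex (4), outer medulla (4), whole kidney 1 (8) or 2 (8), and in endothelial-like cells without cortex or outer medulla (0 each). The share differences ranged over 0.54 to 1.00, 0.58 to 0.90, -0.40 to -0.19, -0.90 to -0.61, -0.17 to -0.08 and 0.11 to 0.30 points in the same order.

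The main fit pairs class sums by library, a block that comes from the design. With no replicate block, members called numbered 7 in principal cells, 19 in distal convoluted tubule, 6 in connecting tubule, 8 in intercalated and 0 in endothelial-like cells. Of all 2100 genes, 1245, 1009, 838, 900 and 280 were called in these classes.

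Between regions in principal cells, the median member moved to 0.12 for inner medulla over cortex and 0.39 for inner over outer medulla with free RNA subtracted, to -0.17 for outer medulla over cortex and 0.28 for inner over outer medulla with TMM factors, and to 0.22 for whole kidney 2 over 1 with marker scores. Free RNA subtraction also gave 9 members higher and 1 lower for that pair (46.5% of all genes), in place of 4 and 0 (38.6%). With marker scores the median member was at 0.04 for inner medulla over cortex. In thick ascending limb it moved with TMM factors to -0.23 for inner medulla over cortex and 0.15 for inner over outer medulla, with free RNA subtracted to -0.04 for the former, and with marker scores to 0.11 for the whole kidney pair. Of 41 named calls, 40 kept their sign in each setting run, and Rpl37a in principal cells turned to -0.0097 without the filter; 9 were past the threshold in every setting. Free RNA subtraction left no endothelial-like fit, and cells of at least 500 genes left the distal convoluted tubule alone to be fitted. Depth limits the rarer classes, whose sums may hold as few as 20000 UMIs.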
